A study of Mus musculus with 2 samples.

Results

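The Foxc, Foxd and Foxp genes described here are Foxc1, Foxc2, Foxd1, Foxd2, Foxp1, Foxp2 and Foxp4, 7 of the 27998 genes in the deposited matrices. They were chosen by gene symbol, and each symbol matched 1 gene. Their values come from 2 droplet-based single-cell RNA libraries of mouse embryos at embryonic day 9.5 (E9.5), strain Swiss Webster, from the pharyngeal apparatus and heart. The Ctrl library carried Mesp1Cre and Rosa26-GFPflox/+, so that cells whose ancestors expressed Mesp1, a gene of early mesoderm, turned on GFP and were sorted as GFP-positive and DAPI-negative. The cKO library carried the same alleles and Tbx1flox/flox, with Cre acting in the same Mesp1 lineage. The labels give no other agent. A pair of embryos was pooled for each library, those of the cKO library had slightly more somites, and the libraries came from different crosses. Thus each genotype had 1 library (n = 1), no spread between replicates could be measured, and every interval below is a 95% interval that covers counting error only. A difference between the libraries is a difference between these 2 libraries, and genotype, embryo, somite stage and library preparation cannot be told apart.

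Fox genes encode forkhead transcription factors, which bind DNA through a winged-helix domain. Foxc1 and Foxc2 are closely related activators that act in somites, cranial mesenchyme, second heart field and endothelium. Foxd1 marks mesenchyme and stroma, with Foxd2 a close relative, and the Foxp proteins are repressors that form homodimers and heterodimers with each other and act in heart, lung, gut and brain. Tbx1, the T-box gene deleted in the cKO embryos, is expressed in the pharyngeal mesoderm, where Foxc proteins are known to act on its enhancer.

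In GRCm38, the build that the submitters name as mm10, Foxc1 lies at chr13:31806646-31810635, Foxd1 at chr13:98354245-98356705, Foxc2 at chr8:121116171-121118895 and Foxd2 at chr4:114906280-114908898. These genes span 3990, 2461, 2725 and 2619 bases. Foxp1 (chr6:98925342-99522746), Foxp2 (chr6:14901349-15441977) and Foxp4 (chr17:47867133-47924632) span 597405, 540629 and 57500 bases. The span matters to a reading of the ratios below, because the ratio of the libraries moved with span over all genes.

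The 250 bases before the start site are shown for members whose ratios diverged in the same cells, from RefSeq (GRCm38.p6), which held 7 start sites of 5 members. Capitals mark the CCAAT box, the letters GGGCGG of a GC box and the forkhead core AAACA, on either strand. The Foxc1 stretch is chr13:31806396-31806645 (plus strand), that of Foxd1 is chr13:98353995-98354244 (plus strand), that of the outermost of the 3 Foxp1 start sites held, which lies inside the annotated span of the gene, is chr6:99520994-99521243 (minus strand) and that of Foxp4 is chr17:47924633-47924882 (minus strand).
Foxc1: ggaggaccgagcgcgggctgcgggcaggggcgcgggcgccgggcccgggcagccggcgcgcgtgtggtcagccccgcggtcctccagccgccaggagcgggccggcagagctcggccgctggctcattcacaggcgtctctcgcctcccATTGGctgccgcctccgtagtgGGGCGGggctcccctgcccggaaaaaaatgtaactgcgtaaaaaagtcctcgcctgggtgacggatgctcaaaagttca
Foxd1: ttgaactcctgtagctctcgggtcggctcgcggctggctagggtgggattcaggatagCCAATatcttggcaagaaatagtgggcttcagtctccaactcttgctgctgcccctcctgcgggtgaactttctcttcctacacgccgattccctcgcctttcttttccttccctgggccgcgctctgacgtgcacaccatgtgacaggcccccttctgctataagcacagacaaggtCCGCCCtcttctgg
Foxp1: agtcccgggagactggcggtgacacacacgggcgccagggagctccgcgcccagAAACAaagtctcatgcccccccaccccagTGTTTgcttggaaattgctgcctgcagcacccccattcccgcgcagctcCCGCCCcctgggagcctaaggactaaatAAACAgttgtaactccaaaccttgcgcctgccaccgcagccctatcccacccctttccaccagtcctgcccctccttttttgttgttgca
Foxp4: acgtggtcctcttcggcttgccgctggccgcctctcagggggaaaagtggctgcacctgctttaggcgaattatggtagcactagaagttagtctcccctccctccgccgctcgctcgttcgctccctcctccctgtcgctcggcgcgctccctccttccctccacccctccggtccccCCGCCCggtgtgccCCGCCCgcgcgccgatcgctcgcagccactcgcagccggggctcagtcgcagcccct
The Foxc1 and Foxd1 stretches each held 1 CCAAT and 1 GGGCGG and no AAACA. The Foxp1 stretch held AAACA 3 times and GGGCGG once, and that of Foxp4 held only GGGCGG, 2 times. Over all 32851 promoter entries of the same length, 33.8% held CCAAT, 32.7% GGGCGG and 46.4% AAACA, counted on both strands. Neither the longer forkhead motif GTAAACA, found in 3.17% of all entries, nor the T-box letters GGTGTGA, found in 3.33%, occurred in any of the 7 stretches of the members. The Foxc1 stretch held 29 CpG dinucleotides and that of Foxd1 held 12, against a median of 6 over all entries. These matches describe the letters in this window and nothing about binding.

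The matrices held 7418 barcodes in the library labelled Ctrl and 10281 in the library labelled cKO, with medians of 16786 and 14341 unique molecular identifiers (UMIs) a barcode, and 6591 and 8969 cells were kept. The libraries shared 12 barcodes among the kept cells. Tbx1 did not follow the labels: it was at 26.5 UMIs per 1000000 UMIs (CPM) in the library labelled Ctrl and at 44.5 CPM in the library labelled cKO. UMIs near the 3′ end do not separate intact from recombined transcripts, so this checks nothing about the deletion, and libraries are named by their labels throughout. An erythroid-like cluster of 159 cells held cells of the library labelled cKO only, and globin and other erythroid markers summed to 171 CPM in its multilineage progenitor-like cells against 0.477 CPM in those of the other library. The cells fell into 24 clusters, of which 20 were named for 13 populations from marker lists, and 16.1% and 17.3% of the cells stayed in unnamed clusters. The members took no part in the clustering.

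Foxc1 was highest in sclerotome-like cells, the ventral somite derivative, and among the named populations next in the multilineage progenitor-like (MLP-like) cells of the pharyngeal mesoderm. Levels are given as CPM of all UMIs in the population, and 3′ counts were not divided by gene length, so levels are compared within a gene. In the library labelled Ctrl, Foxc1 was at 213 CPM in sclerotome-like cells, 117 CPM in MLP-like cells and 63.7 CPM in posterior second heart field-like (pSHF-like) cells. The intervals of these 3 levels did not overlap. An unnamed cluster of 58 and 114 cells, led by Tagln, Myl9 and Heyl, genes of mural and smooth muscle cells, lay between the first 2 of them, at 150 CPM. It was at 49.8 CPM in dermomyotome-like cells, 41.6 CPM in endothelium-like cells and 35.9 CPM in Hox-positive lateral plate-like cells, and each of these intervals overlapped the next. The lowest levels were 8.68 CPM in cardiomyocyte-like (CM-like) cells, 5.84 CPM in septum transversum-like cells and 5.0 CPM in foregut splanchnic-like cells, which did not differ beyond their intervals.

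In the library labelled cKO, Foxc1 was lower in the cells where it was highest and higher in the branchiomeric muscle progenitor-like (BrM-like) cells, the precursors of jaw and face muscle. In MLP-like cells it was at 117 CPM (2208 UMIs) in the library labelled Ctrl and at 71.3 CPM (1840 UMIs) in the library labelled cKO, so that the log2 ratio of cKO over Ctrl was −0.71 (−0.80 to −0.62). Of the 11 MLP markers 9 were also lower there, with a summed level of 773 and 480 CPM, sclerotome markers summed to 159 and 69.5 CPM and dermomyotome markers to 91.3 and 186 CPM, and the part of these differences in the MLP-like ratios was not tested. In sclerotome-like cells it was at 213 and 111 CPM (log2 ratio −0.94, −1.06 to −0.81). In BrM-like cells it was at 21.8 CPM (221 UMIs) in the library labelled Ctrl and 61.7 CPM (715 UMIs) in the other (log2 ratio 1.5, 1.28 to 1.72). Ranked by Foxc1 level among 15 populations and unnamed clusters, BrM-like cells came at rank 10 in the library labelled Ctrl and at rank 4 in the library labelled cKO. The log2 ratio was −0.52 (−0.65 to −0.39) in pSHF-like cells and −0.63 (−0.93 to −0.33) in endothelium-like cells. In pSHF-like cells each of the 10 CM markers had its higher level under the cKO label, and their sum was 142 and 349 CPM, while the 7 pSHF markers summed to 754 and 696 CPM, and the part of this in the pSHF-like ratios of the members and of the lists was not tested. In somatic mesoderm and anterior second heart field-like (SoM/aSHF-like) cells the interval of the ratio held 0, at 0.14 (−0.11 to 0.39).

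**Figure D1:**
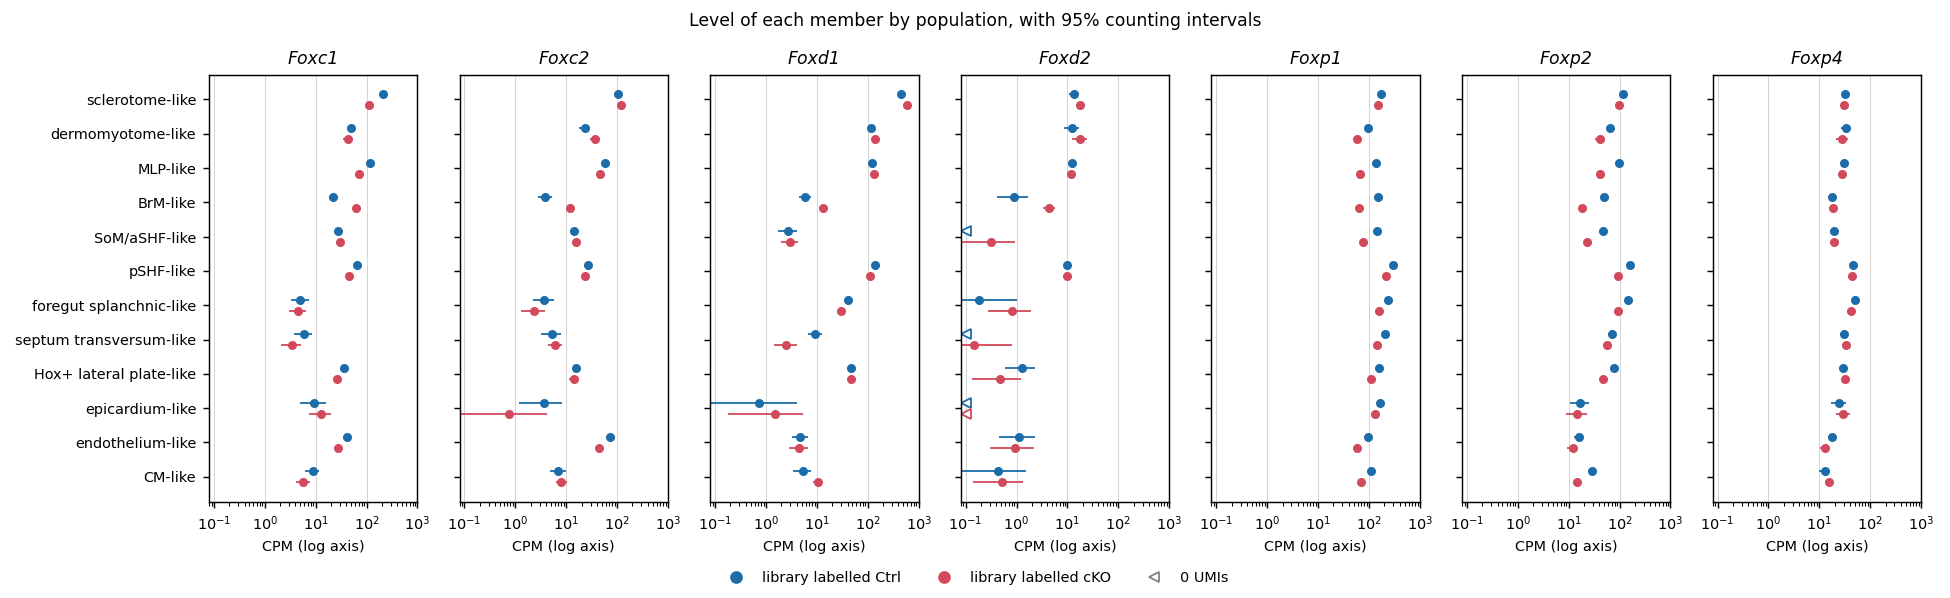
Level of each member (CPM, log axis) in 12 populations, with 1 point for the library labelled Ctrl and 1 for the library labelled cKO and bars for the 95% counting interval; open triangles mark 0 UMIs. Foxc1, Foxc2, Foxd1 and Foxd2 were highest in sclerotome-like cells in both libraries, except Foxd2, which was at 17.6 CPM in dermomyotome-like and 17.3 CPM in sclerotome-like cells of the library labelled cKO, and Foxp1 was highest in pSHF-like cells, at 298 and 214 CPM.

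Both clusters of BrM-like cells showed the Foxc1 difference. The first, of 299 and 384 cells, was at 19.4 CPM in the library labelled Ctrl and 60.1 CPM in the library labelled cKO. The second, of 235 and 412 cells, was at 26.4 and 63.8 CPM. The first cluster held most of the BrM-like cells in the library labelled Ctrl and the second held most in the other library, and the libraries differed by a similar size in each. The share of BrM-like cells with a Foxc1 UMI, after each cell was thinned to 5000 UMIs, was 8.27% (6.07 to 10.9) of 532 Ctrl-labelled cells and 24.8% (21.8 to 28.0) of 786 cKO-labelled cells. Without thinning the shares were 23.4% and 52.0%, at median depths of 18371 and 13829 UMIs. CM-like cells, where Foxc1 was near its lowest, gave 2.32% and 2.14% after thinning.

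Other genes moved in the BrM-like cells beside Foxc1. Twist1, a mesenchyme factor listed among the markers of cranial mesenchyme, went from 74.9 CPM in the library labelled Ctrl to 198 CPM in the library labelled cKO, whereas Alx1, Otx2 and Cyp26c1 of the same list were at no more than 7.77 CPM in either library. Of the 7 BrM markers 5 were lower, with a summed level of 991 against 507 CPM. Lhx2, a homeobox gene of muscle precursors, was at 353 and 7.16 CPM, and Myf5, a myogenic determination factor, at 50.5 and 1.21 CPM. Thus the cells compared under this name were not alike in their own markers, and the part of this difference in the Foxc1 ratio was not tested. Among BrM-like cells with a Tcf21 UMI, a further BrM marker, a Foxc1 UMI was found in 6.42% of 405 Ctrl-labelled cells and in 21.3% of 324 cKO-labelled cells.

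Foxc2 had its highest levels in the same populations and a further high level in endothelium-like cells. In the library labelled Ctrl it was at 102 CPM in sclerotome-like cells, 73.9 CPM in endothelium-like cells and 56.7 CPM in MLP-like cells, and above these at 154 CPM in the unnamed cluster led by Tagln. Within the endothelium-like cells it was at 104 CPM in the cluster led by Hapln1 and Nfatc1, genes of endocardium, and at 54.8 CPM in the cluster led by Cldn5 and Emcn. In the library labelled cKO these clusters were at 53.4 and 39.0 CPM. Over both clusters the Foxc2 log2 ratio was −0.73 (−0.97 to −0.51), and 27.9% (23.3 to 32.9) and 19.2% (15.3 to 23.7) of the thinned cells had a UMI.

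In MLP-like cells Foxc2 was at 56.7 and 46.4 CPM (log2 ratio −0.29, −0.41 to −0.17). In sclerotome-like cells, where Foxc1 was lower, Foxc2 was at 102 and 121 CPM (log2 ratio 0.24, 0.09 to 0.39), and the direction turned in the cells that held only Y-linked UMIs, at −0.58 (−0.85 to −0.31). In BrM-like cells it was low in both libraries, at 3.85 CPM (39 UMIs) and 12.1 CPM (140 UMIs) (log2 ratio 1.65, 1.13 to 2.20). When the cells removed as presumed doublets were kept, and all were clustered and named anew, this ratio was 0.22 (−0.14 to 0.57). The part of the filter and that of the new grouping were not told apart. After thinning, 1.5% (0.651 to 2.94) and 6.11% (4.54 to 8.02) of BrM-like cells had a Foxc2 UMI, and foregut splanchnic-like cells, where Foxc2 was among its lowest, had one in 1.35% (0.369 to 3.42) and 0.489% (0.0593 to 1.76), so the share in the library labelled Ctrl was not above theirs beyond its interval. The Foxc1 ratio in BrM-like cells was 0.92 (0.74 to 1.09) with those cells kept.

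In MLP-like and sclerotome-like cells, where both Foxc genes were high, cells with a UMI of both were at 1.05 to 1.15 times the product of their shares. After thinning, 120 of 1200 MLP-like cells of the library labelled Ctrl had both, against 108 from the product, and 114 of 1776 cells of the other library, against 99.5. In sclerotome-like cells 88 of 355 and 83 of 511 had both, against 83.9 and 74.4. In pSHF-like cells 54 had both in the library labelled Ctrl, against 37.1, and a Foxc1 UMI was found in 39.7% (31.4 to 48.4) of the cells with a Foxc2 UMI and in 25.6% (23.0 to 28.4) of the others. In the library labelled cKO 23 pSHF-like cells had both, against 22.3. Tbx1 and Foxc1 UMIs were found together in 133 MLP-like cells of the library labelled Ctrl, against 124 from the product, and in 227 of the library labelled cKO, against 216. Tbx1 and Foxc2 met in 77 of the former, against 66.9, and in 134 of the latter, against 138. In BrM-like cells of the library labelled cKO Foxc1 met Tbx1 in 48 cells, against 59.0, and Foxc2 in 9, against 11.9. In pSHF-like cells, where Tbx1 was low, a Foxc2 UMI was found in 25.5% of 51 cells with a Tbx1 UMI and in 11.2% of the others in the library labelled Ctrl, and in 21.9% of 64 and 9.24% in the library labelled cKO.

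Foxd1 was highest, among the named populations, in sclerotome-like cells, with 447 CPM (2890 UMIs) in the library labelled Ctrl and 579 CPM (4450 UMIs) in the library labelled cKO (log2 ratio 0.38, 0.31 to 0.44). The direction turned where only Y-linked UMIs were found, at 594 and 507 CPM (log2 ratio −0.23, −0.36 to −0.10). After thinning, 83.7% (79.4 to 87.4) and 90.4% (87.5 to 92.8) of these cells had a UMI. The unnamed cluster led by Tagln, Myl9 and Heyl was at 501 and 539 CPM, and its intervals overlapped those of the sclerotome-like cells in both libraries. The next levels in the library labelled Ctrl were 138 CPM in pSHF-like cells, 120 CPM in MLP-like cells and 116 CPM in dermomyotome-like cells, of which the last 2 did not differ beyond their intervals. Foxd1 was at most 5.29 CPM in CM-like, endothelium-like, SoM/aSHF-like and epicardium-like cells of that library.

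In MLP-like cells Foxd1 was at 120 and 131 CPM (log2 ratio 0.13, 0.05 to 0.20), and in pSHF-like cells at 138 and 111 CPM (log2 ratio −0.31, −0.40 to −0.23). In BrM-like cells it was at 5.92 CPM (60 UMIs) and 13.0 CPM (151 UMIs) (log2 ratio 1.14, 0.70 to 1.59). With all barcodes used, and clustered and named anew, the BrM-like ratio was −0.33 (−0.73 to 0.06). Its direction thus did not hold without the filter on cells and the grouping made after it. The thinned shares were 2.07% and 6.49%, against 1.93% and 2.14% in CM-like cells. The Foxd1 level also differed in CM-like cells, at 5.29 CPM (25 UMIs) and 10.7 CPM (82 UMIs) (log2 ratio 1.01, 0.35 to 1.72), although it was low there. The difference was seen neither in CM-like cells with Xist UMIs alone nor in those with Y-linked UMIs alone, which held 20 and 4 of the 82 UMIs. The log2 ratio was 0.13 (−1.03 to 1.39) where only Xist UMIs were found and −1.76 (−3.87 to −0.01) where only Y-linked ones were. In septum transversum-like cells Foxd1 was at 9.35 CPM (40 UMIs) and 2.48 CPM (17 UMIs) (log2 ratio −1.91, −2.82 to −1.06).

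Foxd2 gave few UMIs, 616 and 781 over all kept cells. It was at 13.4 and 17.3 CPM in sclerotome-like cells, 12.4 and 17.6 CPM in dermomyotome-like cells and 12.2 and 11.5 CPM in MLP-like cells. In none of these 3 populations did the interval of its ratio leave out 0. In BrM-like cells Foxd2 was at 0.888 CPM (9 UMIs) and 4.40 CPM (51 UMIs) (log2 ratio 2.31, 1.27 to 3.52), below the 5 CPM at which a gene counted as measured. In the second BrM-like cluster, where it passed that limit, it was at 1.42 CPM (5 UMIs) and 7.97 CPM (40 UMIs) (log2 ratio 2.49, 1.15 to 4.19). Foxd1 and Foxd2 UMIs met in the same MLP-like cells more often than the product of their shares, in 38 cells against 20.5 in the library labelled Ctrl and in 71 against 34.5 in the library labelled cKO. Of the MLP-like cells with a Foxd2 UMI, 55.9% and 70.3% had a Foxd1 UMI, against 28.6% and 32.0% of those without. No Foxd2 UMI was seen in 510 thinned SoM/aSHF-like cells of the library labelled Ctrl, and a limit of 3 counts for a count of 0 allows up to 0.588% of such cells to have one. This limits the cells with a UMI at 5000 UMIs a cell, not the cells that express the gene.

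The sclerotome-like cluster was made of 2 parts in different proportions. A part led by Pax1 and Meox2 held 255 cells of the library labelled Ctrl and 239 of the library labelled cKO, and a part led by Cbr3, Lum and Zic1 held 104 and 276. This split was made after the data were seen. Foxc1 was lower in the library labelled cKO in both parts, at 203 and 94.7 CPM in the Pax1 part and at 243 and 127 CPM in the Lum part. The Foxc2 log2 ratio was 0.32 (0.11 to 0.53) in the Pax1 part and −0.26 (−0.48 to −0.05) in the Lum part, so its direction in the whole cluster held in only 1 of them. That of Foxd1 was 0.33 (0.23 to 0.42) and 0.11 (0.00 to 0.22). Foxp1 was further below 0 in each part than in the whole cluster, at −0.36 (−0.55 to −0.17) and −0.49 (−0.66 to −0.33), as was Foxp2, at −0.43 (−0.65 to −0.21) and −0.56 (−0.77 to −0.35).

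Foxp1 and Foxp2 were at lower levels in the library labelled cKO in each of the 12 named populations that both libraries held, with intervals of the ratio that left out 0 except for Foxp2 in endothelium-like and epicardium-like cells. In sclerotome-like cells with Xist UMIs alone the direction turned, with log2 ratios of 0.33 (0.17 to 0.49) for Foxp1 and 0.22 (0.02 to 0.41) for Foxp2. Foxp1 was highest in pSHF-like cells, at 298 CPM (6199 UMIs) in the library labelled Ctrl and 214 CPM (3819 UMIs) in the library labelled cKO (log2 ratio −0.48, −0.54 to −0.42). Among the named populations of the library labelled Ctrl the next levels were 233 CPM in foregut splanchnic-like and 210 CPM in septum transversum-like cells, which overlapped in their intervals. The lowest were 95.9 CPM in dermomyotome-like and 94.0 CPM in endothelium-like cells, which also overlapped. Thus Foxp1 was measured in each of the 12 named populations that both libraries held, where the Foxc and Foxd genes were near 0 in several. In erythroid-like cells, found in the library labelled cKO alone, Foxp1 was at 4.78 CPM (20 UMIs).

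Among the named populations the Foxp1 ratio was lowest in BrM-like, MLP-like and SoM/aSHF-like cells. In MLP-like cells it was at 135 CPM (2540 UMIs) and 65.5 CPM (1689 UMIs) (log2 ratio −1.04, −1.13 to −0.95). In BrM-like cells it was at 152 and 62.9 CPM (log2 ratio −1.27, −1.40 to −1.14), and in SoM/aSHF-like cells at 144 and 76.7 CPM (log2 ratio −0.91, −1.04 to −0.78). The intervals of these 3 ratios did not meet that of pSHF-like cells. In SoM/aSHF-like cells each of the 7 SoM/aSHF markers was lower in the library labelled cKO, with a summed level of 596 and 409 CPM. The part of this in the ratio of those cells was not tested. In sclerotome-like cells Foxp1 was at 169 and 153 CPM (log2 ratio −0.14, −0.26 to −0.02), against a median of −0.06 for all genes there. The median of the other genes that span 300000 bases or more was −0.26 there. The share of thinned cells with a Foxp1 UMI was 45.9% (43.1 to 48.8) and 28.1% (26.0 to 30.3) in MLP-like cells and 49.6% (45.3 to 54.0) and 24.7% (21.7 to 27.9) in BrM-like cells. Unthinned, these shares were 73.1% and 52.1%, and 86.5% and 50.5%. Erythroid-like cells, which gave the lowest share, had a Foxp1 UMI in 2.52% (0.690 to 6.32) of 159 thinned cells, at a median depth of 25427 UMIs.

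**Figure D2:**
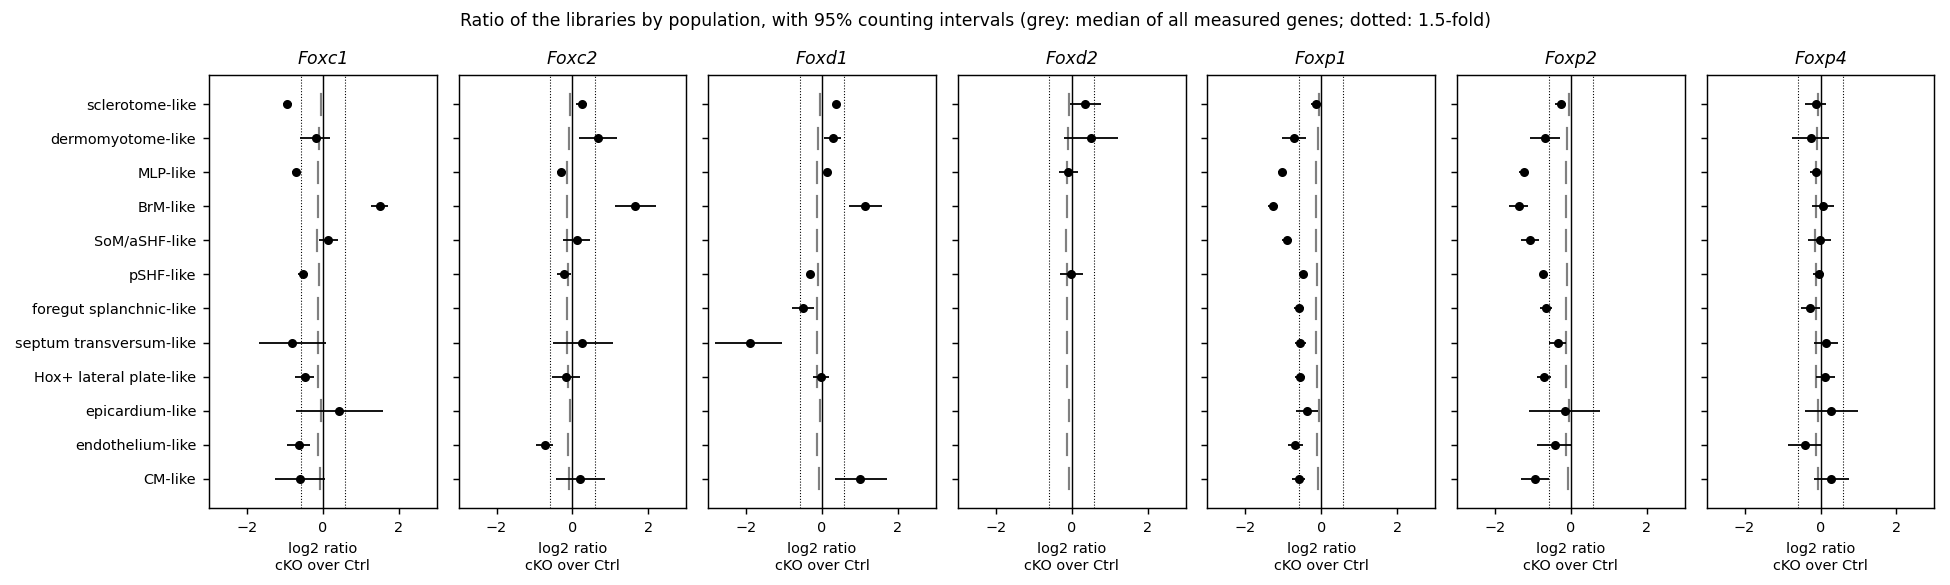
Log2 ratio of cKO over Ctrl for each member in 12 populations, with 95% counting intervals; grey strokes give the median of all measured genes of the population, dotted lines a 1.5-fold difference, and members too low to be measured have no point. Foxp1 and Foxp2 lay left of 0 in all 12 populations, Foxp4 lay between −0.42 and 0.28, and Foxc1 lay left of 0 in MLP-like and right of 0 in BrM-like cells.

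Foxp2 is best known for its part in speech and motor circuits and is also a gene of lung and foregut mesenchyme. In the library labelled Ctrl it was highest in pSHF-like cells, at 158 CPM, and foregut splanchnic-like cells, at 145 CPM, with overlapping intervals. In the library labelled cKO these were at 94.8 and 92.3 CPM. Sclerotome-like cells came first there, at 98.8 CPM, with an interval that overlapped both. In MLP-like cells it was at 97.1 CPM (1832 UMIs) and 41.0 CPM (1057 UMIs) (log2 ratio −1.24, −1.36 to −1.13). In BrM-like cells it was at 48.5 and 18.6 CPM (log2 ratio −1.38, −1.62 to −1.14). Its lowest levels in the library labelled Ctrl were in endothelium-like and epicardium-like cells among the named populations, with overlapping intervals. In endothelium-like cells it was at 15.9 and 11.9 CPM, and the interval of the ratio, −0.90 to 0.04, held 0. The share of thinned MLP-like cells with a UMI was 34.5% (31.8 to 37.3) and 17.6% (15.8 to 19.4), and that of BrM-like cells 18.6% (15.4 to 22.2) and 7.76% (5.99 to 9.86).

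Foxp4, also known from lung, foregut and heart, was under 1.5-fold apart between the libraries in each of the 12 named populations. It was at 30.5 and 28.1 CPM in MLP-like cells (log2 ratio −0.11, −0.27 to 0.05). In BrM-like cells it was at 18.1 and 19.0 CPM (log2 ratio 0.07, −0.22 to 0.36), and in pSHF-like cells at 45.6 and 44.0 CPM (log2 ratio −0.05, −0.19 to 0.09). Over all kept cells its log2 ratio was −0.09 (−0.16 to −0.03), against −0.71 (−0.74 to −0.68) for Foxp1 and −0.86 (−0.90 to −0.81) for Foxp2. The ratio was −0.42 (−0.87 to 0.02) in endothelium-like cells. Its interval left out 0 in the endothelium-like cluster led by Cldn5 and Emcn, at −0.71 (−1.37 to −0.07), in foregut splanchnic-like cells, at −0.27 (−0.52 to −0.01), and in an unnamed cluster, at 0.46 (0.16 to 0.78). Where only Y-linked UMIs were found the ratio went past 1.5-fold, at −0.96 (−1.76 to −0.21) in endothelium-like and −0.79 (−1.30 to −0.26) in sclerotome-like cells, against −0.16 (−0.78 to 0.45) and 0.28 (−0.10 to 0.65) where only Xist UMIs were found.

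Cells with UMIs of 2 Foxp genes were near the product of the shares in pSHF-like cells and at 1.03 to 1.23 times it in MLP-like cells. In thinned pSHF-like cells Foxp1 and Foxp2 met in 428 of 1154 cells, against 407, in the library labelled Ctrl and in 269 of 1168, against 254, in the library labelled cKO. In MLP-like cells they met in 195 of 1200, against 190, and in 101 of 1776, against 87.7. Foxp1 and Foxp4 met in 82 MLP-like cells of the library labelled Ctrl, against 70.7, and in 78 of the library labelled cKO, against 69.1, and Foxp2 and Foxp4 in 60 and 53, against 53.1 and 43.2. In SoM/aSHF-like cells Foxp1 and Foxp4 met in 25 cells, against 17.5, in the library labelled Ctrl and in 22, against 14.2, in the library labelled cKO. Elsewhere pairs lay on both sides of the product: in BrM-like cells of the library labelled cKO Foxp1 met Foxp2 in 21 cells, against 15.1, and Foxp4 in 16, against 17.5.

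**Figure D3:**
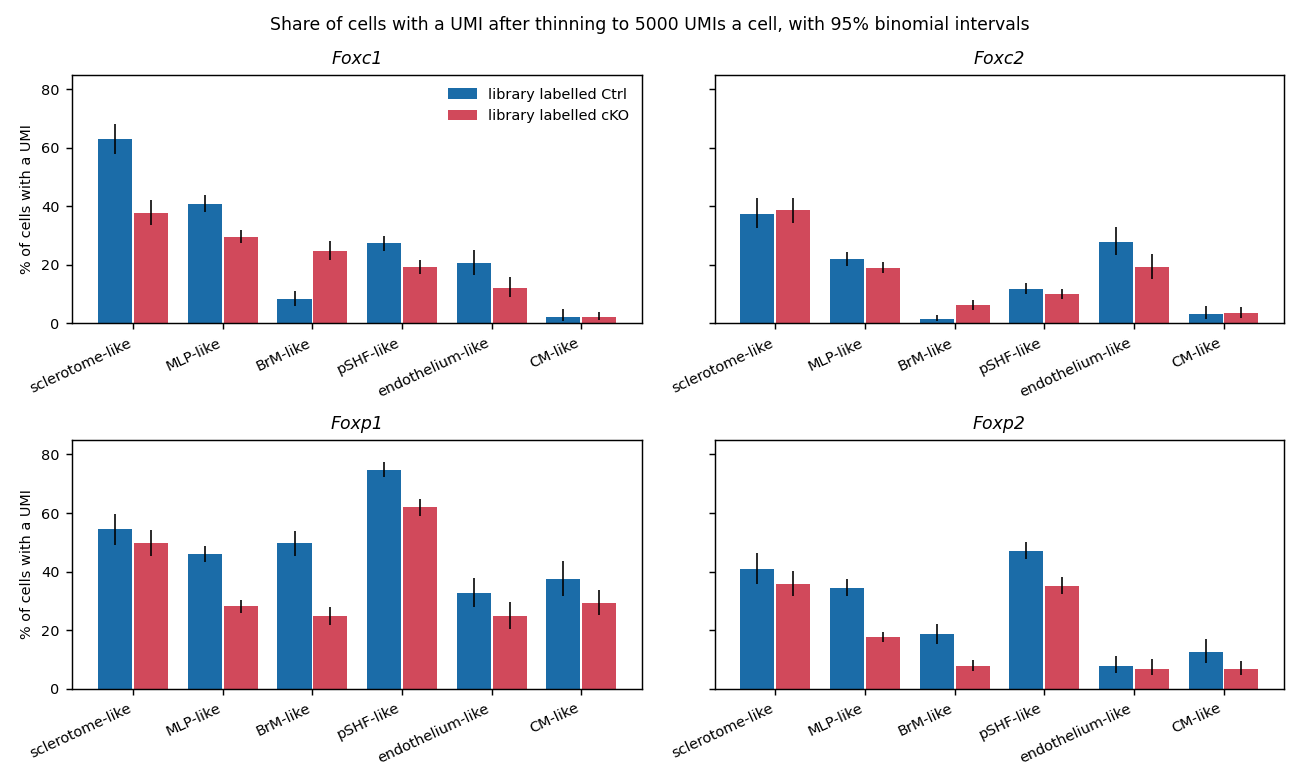
Share of cells with a UMI (percent, axis from 0) of Foxc1, Foxc2, Foxp1 and Foxp2 in 6 populations after thinning each cell to 5000 UMIs, with bars for the 2 libraries and 95% binomial intervals. In BrM-like cells the Foxc1 share was 8.27% and 24.8% while the Foxp1 share was 49.6% and 24.7%.

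Over all genes the ratio of the libraries was lower for longer genes, which touches Foxp1 and Foxp2 as the longest members. In all kept cells the median log2 ratio of other measured genes was 0.05 for the 2163 genes that span under 10000 bases, −0.26 for the 2714 genes of 30000 to 100000 bases and −0.39 for the 210 genes of 300000 bases or more. Of these 210 long genes 12 were as low as or lower than Foxp2 and 29 as low as or lower than Foxp1. In MLP-like cells the median of 198 long genes was −0.48, and 30 of them were at or below Foxp1 and 24 at or below Foxp2. In BrM-like cells the median of 196 was −0.44, with 32 and 30 at or below. In pSHF-like cells the median of 179 was −0.37, with 59 and 16 at or below. In sclerotome-like cells the median of 194 was −0.26, with 114 and 96 at or below. Foxp4, at 57500 bases, had 71.7% of the genes of 30000 to 100000 bases at or below it in all kept cells. For Foxc1, a short gene, 101 of 2114 short genes were at or below it in MLP-like cells and 2087 of 2114 in BrM-like cells. The part of gene span in the Foxp1 and Foxp2 ratios was not tested.

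**Figure D4:**
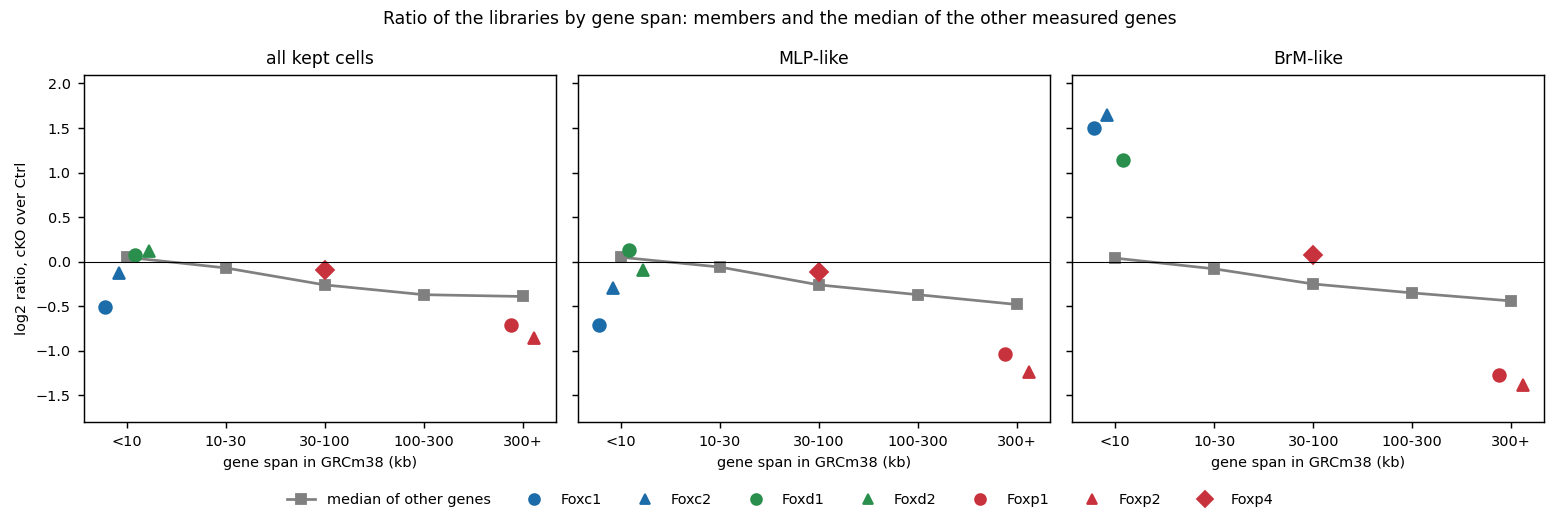
Log2 ratio of cKO over Ctrl by gene span (kb) in all kept cells, MLP-like and BrM-like cells, with grey squares for the median of the other measured genes and coloured symbols for the members, set side by side within a class of span. Foxd2 is not drawn in BrM-like cells, where it was under 5 CPM in both libraries. In all kept cells the median was 0.05 for genes under 10000 bases and −0.39 for genes of 300000 bases or more, and Foxp1 and Foxp2 lay below it in each panel.

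Counts of members past 1.5-fold are read against the share of all genes past it. A gene was measured with at least 30 UMIs in both libraries together and 5 CPM in either. Over all kept cells 7 members were measured, of which Foxp1 and Foxp2 were at least 1.5-fold lower in the library labelled cKO, where 11.2% of all measured genes were, and 0 were that much higher, where 1.96% of all genes were. In MLP-like cells 3 of 7, Foxc1, Foxp1 and Foxp2, were lower, against 14.2% of all genes, and 0 higher, against 2.53%. In BrM-like cells 2 of 6, Foxp1 and Foxp2, were lower, against 15.5%, and 3, Foxc1, Foxc2 and Foxd1, higher, against 5.05%. The count of 3 was 1 with presumed doublets kept and 1 at limits of 100 UMIs and 20 CPM. The median log2 ratio of all genes was −0.14 over all kept cells and −0.13 in both MLP-like and BrM-like cells. In endothelium-like cells 3 of 5 measured members, Foxc1, Foxc2 and Foxp1, were lower, against 14.1%, and 0 higher, against 2.68%. In pSHF-like cells 1 of 7, Foxp2, was lower, against 10.5%, and 0 higher, against 2.09%. In sclerotome-like cells 1 of 7, Foxc1, was lower, against 11.4%, and 0 higher, against 6.21%. Foxp1 and Foxp2 each span more than 300000 bases. Of the other measured genes of that span, 27.6% were lower over all kept cells, 40.9% in MLP-like cells and 39.8% in BrM-like cells. In endothelium-like and pSHF-like cells these shares were 33.5% and 20.1%. No test of the counts of members is possible with 1 library a group.

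The ratios were also read within cells that held Xist UMIs alone and within cells that held Y-linked UMIs alone, since the embryos of a library could differ in sex. The Foxc1 log2 ratio in MLP-like cells was −0.65 (−0.78 to −0.53) in the first and −0.73 (−0.88 to −0.58) in the second, and in BrM-like cells 1.68 (1.38 to 1.98) and 1.22 (0.85 to 1.61). That of Foxp1 was −1.07 and −1.10 in MLP-like cells and −1.16 and −1.49 in BrM-like cells. In sclerotome-like cells the directions parted. The log2 ratio of Foxd1 was 0.71 (0.62 to 0.80) in the cells with Xist UMIs and −0.23 in those with Y-linked UMIs, that of Foxc2 0.72 (0.52 to 0.91) and −0.58, and that of Foxp1 0.33 and −0.82 (−1.05 to −0.60). Foxc1 was lower in both, at −0.89 and −0.97. In MLP-like cells Foxd2 parted in the same way, at 0.60 (0.19 to 1.02) and −0.78 (−1.19 to −0.37). Tbx1 was at 1.99 and 138 CPM in sclerotome-like cells with Xist UMIs alone and at 54.9 and 45.9 CPM in those with Y-linked UMIs alone. Cells with Xist UMIs alone made up 76.0% of the sclerotome-like cells of the library labelled Ctrl and 38.1% of those of the library labelled cKO. The part of this mix in the ratios was not tested.

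**Figure D5:**
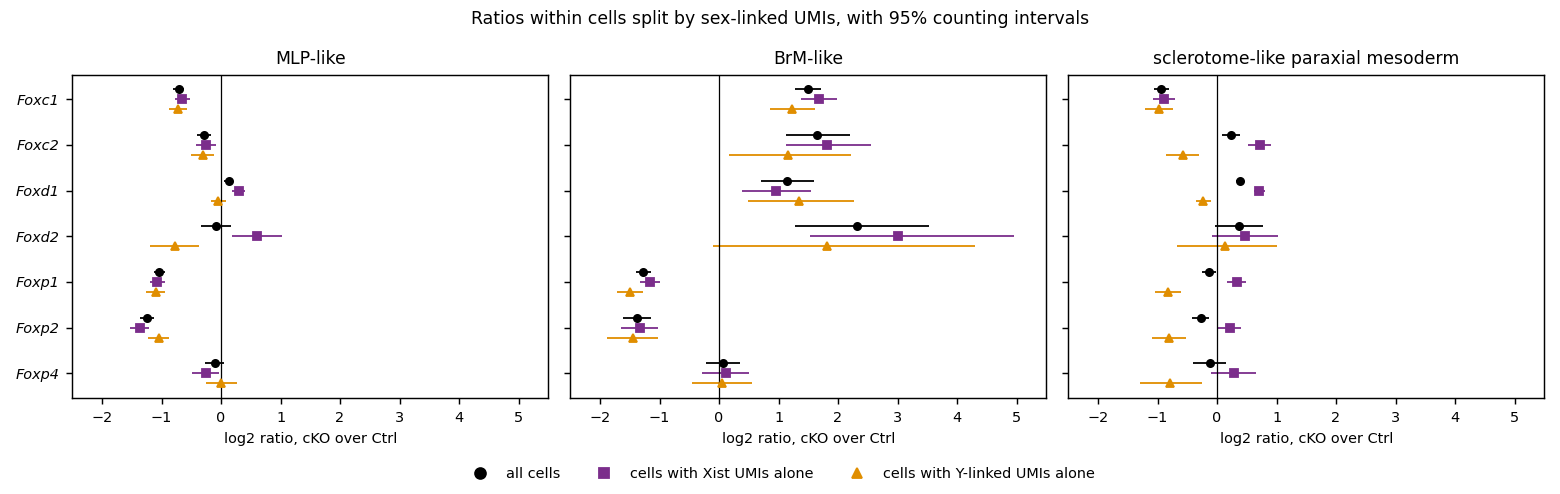
Log2 ratio of cKO over Ctrl for the 7 members in 3 populations, over all cells and over cells with Xist or Y-linked UMIs alone, with 95% counting intervals. In MLP-like cells Foxc1, Foxp1 and Foxp2 kept their side of 0 in both kinds of cells, whereas in sclerotome-like cells Foxc2, Foxd1, Foxp1, Foxp2 and Foxp4 lay on opposite sides.

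Genes known to depend on Foxc factors were read beside them. In endothelium-like cells 11 of 13 listed vascular genes were measured, of which 6 were at least 1.5-fold lower in the library labelled cKO and 0 higher, against 14.1% and 2.68% of all genes. Their median log2 ratio was −0.62, against −0.12 for all genes. Kdr, the main VEGF receptor, was at 423 and 263 CPM, Cdh5, the endothelial cadherin, at 325 and 222 CPM, and Tek, the angiopoietin receptor, at 131 and 97.1 CPM. These 3 are also markers by which the population was named, and the 8 endothelium markers were each lower in the library labelled cKO, with a summed level of 2198 and 1812 CPM. Of the 12 somite and pharyngeal genes linked to Foxc factors 5 were measured in sclerotome-like cells, with 3 lower and 1 higher, against 11.4% and 6.21% of all genes. Meox1, a somite homeobox gene, was at 249 and 137 CPM there, Tcf15 at 160 and 117 CPM, and Pax1, a sclerotome gene, at 138 and 56.6 CPM. Pax1 is also among the 6 sclerotome markers, of which 4 were lower and whose levels summed to 787 and 458 CPM. The part of these marker differences in the list counts was not tested. In MLP-like cells 3 of 6 were lower, Fgf8, Fgf10 and Isl1, and 2 higher, Tbx1 and Meox1, against 14.2% and 2.53% of all genes. Tbx1 and Isl1 are also MLP markers and Meox1 a dermomyotome marker, and the part of this in the counts was not tested. Isl1, the second heart field gene, was at 84.8 and 42.4 CPM in MLP-like cells and at 219 and 38.1 CPM in BrM-like cells, and Fgf10 was at 56.2 and 1.64 CPM in BrM-like cells.

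Of 9 stroma and mesenchyme genes linked to Foxd factors 6 were measured in sclerotome-like cells, with 4 lower and 1 higher, against 11.4% and 6.21% of all genes, and a median log2 ratio of −0.81, against −0.06 for all genes. Of the homeobox genes on this list, Meis2 was at 497 and 305 CPM and Meis1 at 117 and 50.5 CPM. Of 12 partners and corepressors of Foxp proteins 9 were measured in pSHF-like cells. Of these, 0 were past 1.5-fold in either direction, against 10.5% of all genes lower and 2.09% higher. Their median log2 ratio was −0.31, against −0.11 for all genes. Chd4 was at 363 and 278 CPM, Hdac2 at 185 and 199 CPM and Ctbp1 at 99.0 and 96.5 CPM. Of 9 heart growth genes linked to Foxp factors 5 were measured there, with 2 lower and 1 higher, against the same shares of all genes. Their median log2 ratio was −0.35. Sox11 was at 943 and 590 CPM, Ccnd2, cyclin D2, at 425 and 258 CPM, and Sox4 at 392 and 307 CPM.

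The other 37 forkhead genes of the matrices were mostly low, and 8 reached 20 CPM in a population of at least 100 cells in each library. Foxf1, a gene of splanchnic mesoderm under hedgehog control, had the highest level, 277 CPM in foregut splanchnic-like cells of both libraries. Foxf1 is also a marker by which the foregut splanchnic-like and pSHF-like cells were named. In MLP-like cells 12 were measured, with 5 at least 1.5-fold lower and 0 higher, against 14.2% and 2.53% of all genes, and their median log2 ratio was −0.51, against −0.13 for all genes. Foxn3 was at 43.2 and 34.6 CPM, Foxk2 at 24.4 and 16.5 CPM, and Foxo1 at 18.4 and 23.6 CPM in these cells. In BrM-like cells 11 were measured, with 6 lower and 0 higher, against 15.5% and 5.05% of all genes. Foxn2 was at 25.1 and 15.4 CPM and Foxk2 at 25.7 and 14.2 CPM there. No forkhead gene measured there was past 1.5-fold higher other than Foxc1, Foxc2 and Foxd1. The ratios of Foxc2 and Foxd1 changed with the filters on cells given above and the new grouping that followed.

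The pattern of each member over 13 populations or unnamed clusters of at least 100 cells in each of the 2 libraries (26 points that share 2 libraries and their depths) was compared with that of 7645 genes by Pearson's r of log2(CPM + 5). The closest to Foxc1 was Sncaip (0.87), which was also closest to Foxd1 (0.85) and Foxd2 (0.91), and the next were Foxc2 (0.84) and Cped1 (0.81). The closest to Foxc2 were Gmds (0.87), the next annotated gene after Foxc1 on chromosome 13, Foxc1 (0.84) and Nudt9 (0.84). Foxd2 and Foxd1 were at 0.86 with each other, and Lrig3 and Rgma, at 0.83, were also close to Foxd1. Foxp1 was closest to Frs2, Ctr9 and Aco1, each at 0.86, Foxp2 to Slc39a6 (0.87), Hnrnpl (0.86) and Vezf1 (0.85), and Foxp4 to Dhx30 (0.87). Foxp1 and Foxp2 were at 0.81 with each other and Foxp2 and Foxp4 at 0.85. Foxc1 was at −0.10 with Foxp1.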

How the data were processed

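The authors deposited raw counts of UMIs per gene and cell barcode from Cell Ranger, which the submitters' processing notes give as version 3.1.0 with genome build mm10. The deposited matrices hold the barcodes called as cells, with no normalization. Reads were from the 10x 3′ kit, and the counting of overlapping genes is not given in the sources used here.

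Cells with at least 1000 genes and at most 10% mitochondrial UMIs were kept. Scrublet (scanpy 1.11.5) called 0 cells of the library labelled Ctrl and 7.81% of the other at its automatic threshold, so the highest-scoring cells were removed at 0.8% per 1000 cells (416 and 804). Clustering used Seurat 5.3.0 (R 4.3.3) with 2000 variable genes, 30 dimensions, reciprocal principal component integration and resolution 1. Left out of it throughout were 252 genes. These included the members, the other forkhead genes, Tbx1, the genes of the lists and further genes such as Isl1, Lhx2 and Myf5. The mitochondrial, ribosomal protein, globin and sex-linked genes were also among them. A further 1548 genes at least 2-fold apart between the libraries in a first pass were left out of the second. Cluster naming thresholds were set after the data were seen, and a cluster of 20 and 19 cells led by platelet genes was left unnamed.

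UMIs were summed per library and population and given as CPM. Sums have exact Poisson intervals, ratios exact conditional intervals and shares Clopper-Pearson intervals, each at 95% and for counting error only, and a count of 0 cells was given a limit of 3 counts. For shares, cells were thinned to 5000 UMIs, which left out 71 and 99 shallower cells. With 1 library a group no test was made. The ratio and interval code was tested on simulated counts. The named genes are the 7 members, Tbx1, other forkhead genes at 20 CPM or more, the 3 most highly expressed genes of each list in the population described and the 3 genes most like each member. Some genes that this rule or the marker lists name are not reported here. Marker genes named beside BrM-like cells and the list genes named as past 1.5-fold were chosen after their values were seen. The members and lists were chosen with earlier results of these data known. Spans and start sites came from RefSeq tables of GRCm38.p6, and 95.2% of 9551 measured genes had a span. Alternatives kept the doublets, used all barcodes, resolution 0.6, no integration, the first clustering pass, sex-linked subsets, means over cells, other thinning, other limits and another pseudocount.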

Additional observations from a re-analysis of the deposited data

Results flagged for a closer look

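Members were flagged where they lay past 1.5-fold on opposite sides in 2 populations, with intervals that left out 0. The Foxc1 log2 ratio of cKO over Ctrl was 1.5 in BrM-like cells and −0.94 in sclerotome-like cells. That of Foxc2 was 1.65 in BrM-like cells and −0.73 in endothelium-like cells. That of Foxd1 was 1.14 in BrM-like cells and −1.91 in septum transversum-like cells. The difference between populations was not tested, since each genotype has 1 library. The Foxc1 ratio in BrM-like cells lay between 0.92 and 1.76 over 9 alternatives, that of Foxc2 between 0.22 and 1.81 and that of Foxd1 between −0.33 and 1.34. In septum transversum-like cells that of Foxd1, from 40 and 17 UMIs, lay between −2.31 and −0.52.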

How the results depend on the processing

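Of the log2 ratios of members recomputed under the alternatives, 570 of 695 stayed within the counting interval, 123 moved beyond it and 2 that were past 1.5-fold changed sign. These were Foxd1 in BrM-like cells with all barcodes (−0.33) and Foxd1 in CM-like cells with Y-linked UMIs alone (−1.76), where the reported ratio was 1.01. A further 6 values changed sign from ratios under 1.5-fold with both intervals leaving out 0, of which 5 were in sclerotome-like cells: Foxc2 (−0.58) and Foxd1 (−0.23) in cells with Y-linked UMIs alone, Foxp1 (0.33) and Foxp2 (0.22) in cells with Xist UMIs alone and Foxc2 (−0.26) in the Lum part. The other was Foxd1 over all kept cells, from 0.07 to −0.22 in cells with Xist UMIs alone. The share of epicardium-like cells with a Foxp4 UMI was 11.7 percentage points higher in the library labelled cKO, and −4.78 points when thinned to 10000 UMIs and −2.42 points without thinning. The cause of these was not tested. In MLP-like cells 9 of 9 alternatives kept Foxc1 (−0.77 to −0.58), Foxp1 (−1.22 to −0.91) and Foxp2 (−1.75 to −1.05) below 0. In BrM-like cells 9 of 9 kept Foxp1 (−1.49 to −1.14) and Foxp2 (−1.49 to −1.25) below 0.

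The count of lower members over all kept cells, 2, was 1 relative to the median ratio and 0 at a fold of 2. In MLP-like cells it was 3, and 5 in the first clustering pass, and the count of higher members went from 0 to 1 in cells with Xist UMIs alone. In BrM-like cells the count of higher members, 3, was 1 with presumed doublets kept and 1 at 100 UMIs and 20 CPM. No paired analysis was possible because each group has 1 library. Depth limits Foxd2 and the low levels of Foxc and Foxd genes, where 3 UMIs are the floor, and no setting supplies the missing replicates.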
